A study of Mus musculus with 2 samples.

Results

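The protein disulfide isomerase (PDI) family was followed through splenic dendritic cells (DC) of H2-Aa cit/cit mice and their WT controls. It was taken as the 10 genes P4hb, Pdia3, Pdia4, Pdia5, Pdia6, Txndc5, Txndc11, Erp44, Tmx1 and Tmx3, matched by symbol among the 32285 genes of the deposited tables, and each of the 10 had exactly that name there. Both groups were naive female mice aged 4 months by the sample labels, whereas the study's methods give younger ages for its mice in general. WT mice carried H2-Aa +/+ and served as littermate controls, and H2-Aa cit/cit mice were homozygous for citation, an allele from chemical mutagenesis that leaves almost no H2-Aa transcript. The allele is carried in the germline, so that an effect inside DC and an effect of the rest of the mouse cannot be told apart. Spleens of 3 mice per genotype were pooled, CD11c+ cells were enriched on beads, live CD45.2+ CD11c+ cells were sorted, and 1 droplet library of 3′ transcripts was made per genotype. One library per genotype gives no replicate error. No difference between genotypes could therefore be tested, genotype and library cannot be told apart, and every 95% interval below covers counting error only.

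PDI proteins are enzymes of the endoplasmic reticulum (ER) with thioredoxin-like folds that form, break and rearrange disulfide bonds while secreted and membrane proteins fold. Some work on most clients, others are handed to clients by chaperones or lectins, and several are anchored in the ER membrane. Many of their genes belong to the unfolded protein response, in which the transcription factors XBP1 and ATF6 raise the folding capacity of the ER. In DC the family also serves antigen presentation, since the product of Pdia3 sits in the peptide-loading complex of MHC-I and a lysosomal relative reduces antigens.

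The WT library held 7814 cells with 51020804 unique molecular identifiers (UMIs). The one from H2-Aa cit/cit mice held 11525 cells with 72652201, at a median of 5492 and 5633 UMIs per cell. The median share of UMIs from ribosomal protein genes was 11.2% in WT against 16.4% in H2-Aa cit/cit cells. The libraries shared 31 cell barcodes. Cells were placed in classes by marker UMIs, with limits set after the distributions had been seen, and classes carry "-like" because these names were rebuilt here. No doublet caller was run. Only some combinations of gates, such as mature DC with proliferating or cDC1 with macrophage, were set aside as mixed, 117 WT and 85 H2-Aa cit/cit cells. Other cells in more than 1 gate went to 1 class by a fixed order. Cells in the cDC1 and cDC2 gates counted as cDC1-like, and those in the cDC1 and mature DC gates as mature DC-like. Cells in the pDC gate could also pass the cDC1, monocyte or plasma gate if the pDC list had more UMIs. H2-Aa, which encodes the MHC-II alpha chain, checked the labels. Its CPM, the UMIs of a gene scaled to 1000000 UMIs of a class, was between 1876 and 8645 over the WT classes but between 14.2 and 84.3 over those of H2-Aa cit/cit mice.

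The classes differed in size and depth. All cDC2-like cells together numbered 1944 for WT mice against 5039 for H2-Aa cit/cit mice, with 350 and 1013 of them Ccr2+ and 1594 and 4026 without that signature. cDC1-like cells numbered 578 and 681, mature DC-like cells 1941 and 1215, proliferating cells outside the cDC1 lineage 227 and 482, and cells with a ribosomal share under 8%, called low-ribosomal, 1931 and 2470. The ribosomal limit alone kept low-ribosomal cells with cDC2 markers out of the cDC2-like classes. The 12 genes of the cDC2 list summed to 1363 and 1386 CPM in low-ribosomal cells, against 1452 and 1441 CPM in cDC2-like cells. The smallest classes were the pDC-like cells with 99 and 101, the monocyte-like cells with 109 and 119, and the macrophage-like cells with 107 and 59. The 9 genes of the cDC1 list summed to 3111 and 2344 CPM in cDC1-like cells against 64.0 and 59.5 CPM in cDC2-like cells, and the pDC list to 8049 and 6985 CPM in pDC-like cells against 471 and 429.8 CPM in cDC2-like cells. The same lists set the gates, so these gaps follow from the gating and are no separate check of the classes. Many cells lay near a limit. Within 25% of the limit of the cDC2 list were 807 WT and 1220 H2-Aa cit/cit cells, and within 25% of the ribosomal limit 956 and 1088.

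P4hb (ENSMUSG00000025130) spans chr11:120560298-120573253 on the minus strand of GRCm38, Pdia3 (ENSMUSG00000027248) chr2:121413775-121438687 on the plus strand, Pdia4 (ENSMUSG00000025823) chr6:47796141-47813430 on the minus strand, Pdia5 (ENSMUSG00000022844) chr16:35397312-35490873 on the minus strand and Pdia6 (ENSMUSG00000020571) chr12:17266545-17284770 on the plus strand.

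Promoter sequence is shown for the members whose levels the comparison turns on and for Tmx1 as a member with near-equal levels. RefSeq windows of 300 bases on GRCm38.p6, 250 before to 50 after a start site, were used for 9 of the 10 members, not Tmx3. They are printed 5′ to 3′ on the strand of the gene. Capitals mark CCAAT and CCACG on either strand (ATTGG and CGTGG on the printed strand when reversed), TGACGTGG, and whole ER stress response elements (ERSE), the element bound by ATF6 and XBP1 with NF-Y, which joins CCAAT and CCACG over 9 bases. P4hb lies at chr11:120573204-120573503 (minus strand), Pdia3 at chr2:121413652-121413951 (plus), Pdia4 at chr6:47813463-47813762 (minus), Pdia6 at chr12:17266339-17266638 (plus), Txndc11, by the first of its windows, at chr16:11134483-11134782 (minus), and Tmx1 at chr12:70452904-70453203 (plus).
Pdia6: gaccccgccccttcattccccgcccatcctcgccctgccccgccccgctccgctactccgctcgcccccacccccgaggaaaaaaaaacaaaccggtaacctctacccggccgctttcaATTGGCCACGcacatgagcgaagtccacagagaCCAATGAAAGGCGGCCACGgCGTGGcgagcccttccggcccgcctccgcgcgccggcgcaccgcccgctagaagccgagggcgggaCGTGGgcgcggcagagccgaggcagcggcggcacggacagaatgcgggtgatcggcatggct
Pdia4: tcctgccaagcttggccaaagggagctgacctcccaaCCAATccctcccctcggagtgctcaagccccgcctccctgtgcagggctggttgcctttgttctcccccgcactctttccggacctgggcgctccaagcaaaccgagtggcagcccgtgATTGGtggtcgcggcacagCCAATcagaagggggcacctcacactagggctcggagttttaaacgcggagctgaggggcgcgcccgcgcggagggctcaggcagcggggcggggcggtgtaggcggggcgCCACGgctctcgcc
Pdia3: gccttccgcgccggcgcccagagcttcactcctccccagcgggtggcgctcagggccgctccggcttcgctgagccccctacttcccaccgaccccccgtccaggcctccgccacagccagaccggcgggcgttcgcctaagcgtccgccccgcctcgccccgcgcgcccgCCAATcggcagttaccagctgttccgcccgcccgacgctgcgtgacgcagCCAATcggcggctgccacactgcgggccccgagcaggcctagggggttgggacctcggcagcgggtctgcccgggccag
P4hb: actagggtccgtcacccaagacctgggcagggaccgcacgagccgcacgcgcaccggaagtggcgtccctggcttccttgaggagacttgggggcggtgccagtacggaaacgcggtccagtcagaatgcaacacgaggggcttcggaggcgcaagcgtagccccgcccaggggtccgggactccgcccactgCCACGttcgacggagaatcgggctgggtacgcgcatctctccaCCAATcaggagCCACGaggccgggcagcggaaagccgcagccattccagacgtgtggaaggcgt
Txndc11: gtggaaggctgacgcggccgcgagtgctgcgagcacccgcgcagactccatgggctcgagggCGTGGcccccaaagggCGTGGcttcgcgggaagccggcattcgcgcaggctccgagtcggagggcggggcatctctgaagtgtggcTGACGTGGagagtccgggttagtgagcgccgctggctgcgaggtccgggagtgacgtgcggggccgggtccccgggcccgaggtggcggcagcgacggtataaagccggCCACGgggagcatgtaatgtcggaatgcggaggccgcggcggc
Tmx1: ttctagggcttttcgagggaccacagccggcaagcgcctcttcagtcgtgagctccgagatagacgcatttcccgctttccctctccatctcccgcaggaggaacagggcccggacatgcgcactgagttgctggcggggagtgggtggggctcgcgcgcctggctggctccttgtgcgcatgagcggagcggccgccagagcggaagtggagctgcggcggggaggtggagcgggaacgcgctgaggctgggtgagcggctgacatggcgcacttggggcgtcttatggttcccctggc

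Pdia6 was the only member with a whole ERSE, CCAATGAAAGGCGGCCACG, which begins 98 bases before its start site. That arrangement was found in 39 of 32851 mouse windows of the same length (0.119%). The variant ERSE-II, with ATTGG and CCACG 1 base apart, was in 12 windows (0.0365%) and in none of the members'. The UPRE-type element TGACGTGG, which XBP1 binds, stood 102 bases before the start of Txndc11 and 138 bases before another start of Txndc5, and was in 0.676% of all windows. Its last letters are a reversed CCACG, so each such match also counts as one of CCACG. The short elements are common, with CCAAT in 37.4% and CCACG in 32.8% of all windows. CCAAT was found in windows of P4hb, Pdia3, Pdia4, Pdia6, Txndc11 and Erp44, and CCACG in those of P4hb, Pdia4, Pdia5, Pdia6, Txndc5, Txndc11 and Erp44. The window of Tmx1 held none of the elements searched. These are matches of letters and not sites of binding.

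**Figure D1:**
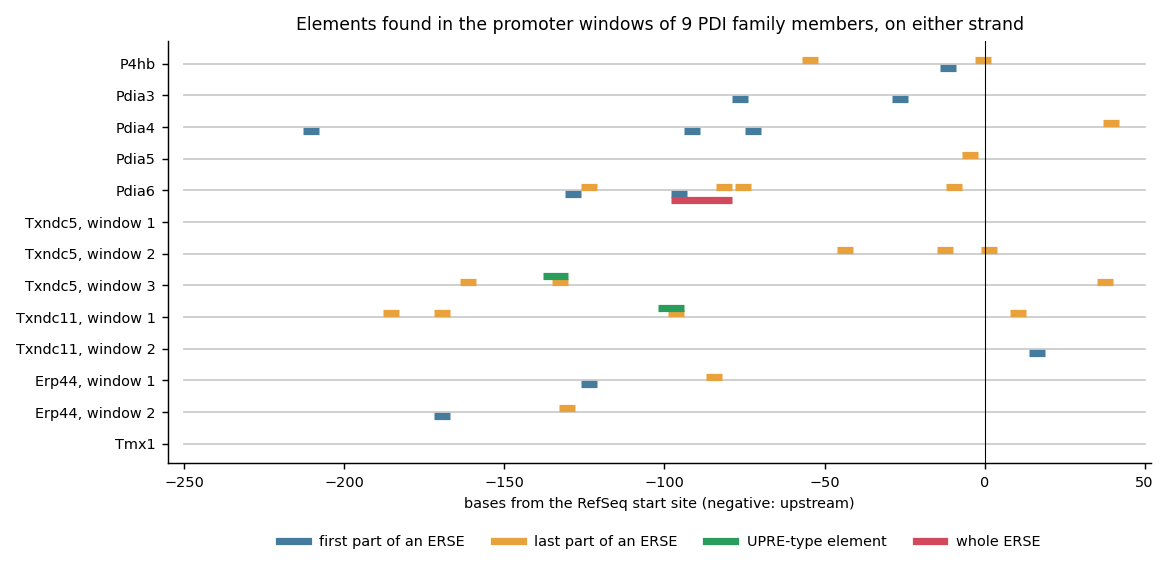
Position of each element in the promoter windows of 9 members, in bases from the RefSeq start site, with 1 line per window and matches on either strand. The whole ERSE lies 98 bases before the start of Pdia6, and the UPRE-type elements lie in 1 window each of Txndc5 and Txndc11.

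In cDC2-like cells, P4hb, Pdia3, Pdia4 and Pdia6 were all more than 2-fold higher in H2-Aa cit/cit mice, Txndc11 was past 1.5-fold, Erp44 and Txndc5 were higher by less, and Tmx1 and Tmx3 were near equal. Of 9 members with a mean of at least 20 CPM over both libraries, 5 (P4hb, Pdia3, Pdia4, Pdia6 and Txndc11) were past 1.5-fold higher, beside 118 of 6375 genes (1.85%), and 0 were past 1.5-fold lower, beside 1.22% of genes. The median log2 ratio of these 9 members was 0.88, against −0.01 over all genes tested. Summed over the 10 members, the level was 618 CPM in WT against 1253 CPM in H2-Aa cit/cit cDC2-like cells, a ratio of 2.03.

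P4hb encodes PDI itself, which also serves as a subunit of prolyl 4-hydroxylase and of the microsomal triglyceride transfer protein. It was at 52.7 CPM in WT against 114 CPM in H2-Aa cit/cit cDC2-like cells, from 876 and 4376 UMIs, a log2 ratio of 1.11 (interval 1.004 to 1.22). Pdia3, the partner of calnexin, calreticulin and tapasin, was at 197 and 431 CPM, a log2 ratio of 1.13 (1.08 to 1.19). The intervals of these ratios overlapped. Pdia6, which works with the chaperone encoded by Hspa5, was at 103 and 319.8 CPM, a log2 ratio of 1.63 (1.56 to 1.71). Pdia4, a larger member with an additional catalytic domain, was at 25.4 and 89.2 CPM, a log2 ratio of 1.81 (1.66 to 1.96). The intervals of Pdia4 and Pdia6 lay above those of P4hb and Pdia3. By ratio, Pdia4 stood at rank 10 and Pdia6 at rank 12 of the 6375 genes, ahead of Pdia3 at 21, P4hb at 23 and Txndc11 at 36.

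Txndc11 spans the ER membrane and was first described with the NADPH oxidases of the thyroid. It was at 40.5 CPM in WT against 74.7 CPM in H2-Aa cit/cit cDC2-like cells, a log2 ratio of 0.88 (0.76 to 1.01). Erp44, which binds partly folded clients in the early secretory pathway and returns them to the ER, was at 63.8 and 83.7 CPM, a log2 ratio of 0.39 (0.29 to 0.49). Its ratio lay below that of Txndc11 and short of 1.5-fold. Txndc5, a PDI that is abundant in antibody-secreting cells, was at 23.6 and 27.7 CPM, a log2 ratio of 0.23 (0.06 to 0.40). Tmx1 was at 34.1 and 33.5 CPM, a log2 ratio of −0.02 (−0.17 to 0.12). Tmx3 was at 75.5 and 69.6 CPM, a log2 ratio of −0.12 (−0.21 to −0.02). Tmx1 and Tmx3 encode transmembrane thioredoxin-like proteins. Neither differed by 1.5-fold anywhere within its interval.

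Pdia5 was scarce in cDC2-like cells and was under the minimum of 20 CPM. It had 36 UMIs in WT against 398 in H2-Aa cit/cit cDC2-like cells, which is 2.17 and 10.3 CPM, a log2 ratio of 2.25 (1.76 to 2.79). In WT, 55.6% of these UMIs came from the 1% of cells with most of them, 19 cells, and in H2-Aa cit/cit 30.4% came from 50 cells. No WT cell held more than 2 of the 36 UMIs. So few UMIs force a high share, and the shares of the libraries cannot be compared. cDC1 markers were at 64.0 CPM in WT against 59.5 CPM in H2-Aa cit/cit cDC2-like cells. Their part in the level of Pdia5 was not tested.

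**Figure D2:**
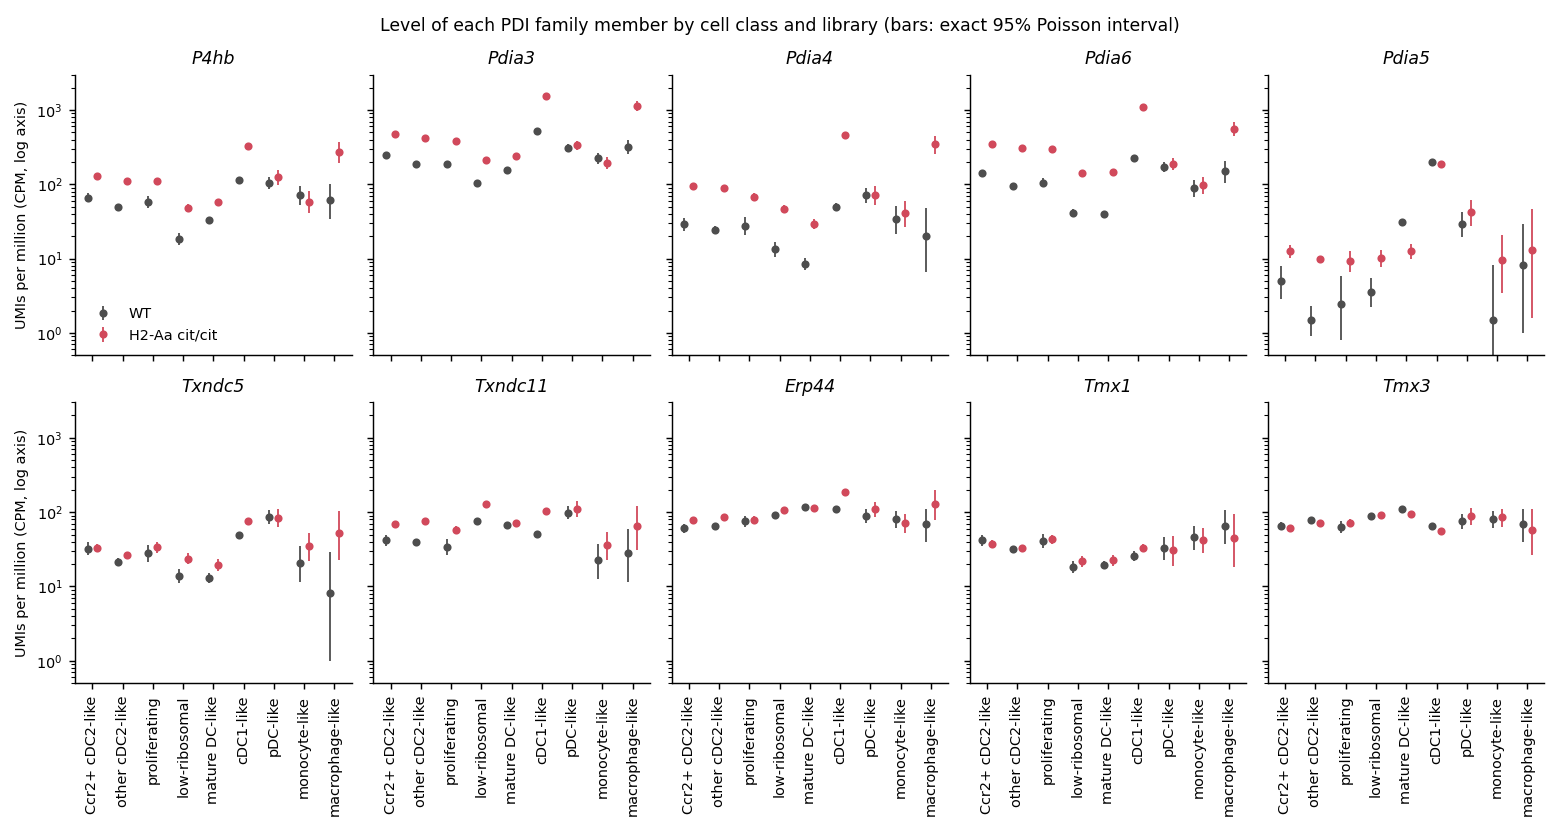
Level of each member in CPM (log axis) in 9 cell classes of the WT (dark) and H2-Aa cit/cit (red) library, with exact 95% Poisson intervals. P4hb, Pdia3, Pdia4 and Pdia6 are higher in H2-Aa cit/cit beyond the intervals in every DC class except pDC-like cells, Pdia5 stands out in cDC1-like cells of both libraries, and Tmx1 and Tmx3 nearly coincide in both cDC2-like classes.

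Both groups of cDC2-like cells showed the same 5 members past 1.5-fold higher, beside 2.12% of all genes in the Ccr2+ and 1.86% in the other cDC2-like cells. In the Ccr2+ cells 0 members were past 1.5-fold lower, beside 1.31% of genes. In Ccr2+ cells, Pdia4 was at 29.2 and 94.4 CPM (log2 ratio 1.69, interval 1.38 to 2.02) and Pdia6 at 140.1 and 350.4 CPM (log2 ratio 1.32, 1.18 to 1.47). In the other cDC2-like cells, Pdia4 was at 24.5 and 87.9 CPM (1.84, 1.68 to 2.01) and Pdia6 at 94.1 and 312 CPM (1.73, 1.64 to 1.81). The intervals of Pdia6 did not overlap between these groups and those of Pdia4 did. Those of Pdia3 did not overlap either, at 0.86 to 1.08 in Ccr2+ and 1.11 to 1.24 in the other cDC2-like cells. Under 11 alternatives the log2 ratio of Pdia6 ran from 0.95 to 1.58 in Ccr2+ and from 1.54 to 1.82 in the other cDC2-like cells, so these ranges met. In WT, Ccr2+ cells had more Pdia3 (245 against 185 CPM), Pdia6 and P4hb (66.2 against 49.5 CPM) than the other cDC2-like cells. In H2-Aa cit/cit, Pdia3 stood at 479.6 and 419 CPM in the same order.

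Proliferating cells gave the same 5 members, with 2.85% of all genes past 1.5-fold higher and 2.57% lower, and 0 members lower. Pdia6 was at 105 CPM in WT against 302 CPM in H2-Aa cit/cit proliferating cells (log2 ratio 1.53, 1.31 to 1.74), and Pdia4 at 27.8 and 67.5 CPM (1.28, 0.86 to 1.72). Levels in this class were close to those of cDC2-like cells of the same library. In H2-Aa cit/cit, the log2 ratio of proliferating to cDC2-like cells was −0.17 for Pdia3 (−0.25 to −0.10) and −0.40 for Pdia4 (−0.59 to −0.23), and in WT both intervals included 0.

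Low-ribosomal cells combined lower levels of P4hb, Pdia3, Pdia4 and Pdia6 than cDC2-like cells with the same direction between libraries. There 8 members passed the minimum and 5 of them, again P4hb, Pdia3, Pdia4, Pdia6 and Txndc11, were past 1.5-fold higher, beside 2.5% of all genes, with 0 lower beside 2.04%. Pdia6 was at 41.3 CPM in WT against 144 CPM in H2-Aa cit/cit (log2 ratio 1.80, 1.60 to 2.01), Pdia4 at 13.3 and 46.9 CPM (1.82, 1.46 to 2.20) and P4hb at 18.5 and 48.6 CPM (1.39, 1.07 to 1.72). The log2 ratio of low-ribosomal to cDC2-like cells of the same library was −1.51 in WT against −1.23 in H2-Aa cit/cit for P4hb, and −1.32 and −1.15 for Pdia6. Txndc11, Erp44 and Tmx3 ran the other way. By the same ratio Txndc11 was higher by 0.92 in WT against 0.81 in H2-Aa cit/cit, Erp44 by 0.52 and 0.35, and Tmx3 by 0.25 and 0.39. The median depth of this class was 2828 UMIs in WT against 2162.5 UMIs in H2-Aa cit/cit, the lowest of the large classes.

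Of the 9 classes, cDC1-like cells held the highest levels of Pdia3 and Pdia6 in both libraries. They also held the widest gap between libraries for Pdia4 among classes with at least 25 UMIs of it in each library. Proliferating cDC1-like cells, not among the 9, were at 624 and 1335 CPM of Pdia3 and at 278 and 907 CPM of Pdia6. These levels were above those of cDC1-like cells in WT and below them in H2-Aa cit/cit. All 10 members passed the minimum of 20 CPM, and 7 were past 1.5-fold higher (P4hb, Pdia3, Pdia4, Pdia6, Txndc5, Txndc11 and Erp44), beside 7.17% of 6052 genes, with 0 lower beside 5.8%. Their summed level was 1424 CPM in WT against 4060.0 CPM in H2-Aa cit/cit cells, a ratio of 2.85. The median log2 ratio of the 10 members was 0.89, against −0.04 over all genes tested.

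Pdia4 was at 49.8 CPM in WT cDC1-like cells, from 322 UMIs, and at 458 CPM in H2-Aa cit/cit cDC1-like cells, from 4274 UMIs. This is a ratio of 9.19 and a log2 ratio of 3.20 (3.04 to 3.37), at rank 14 of the genes tested. Pdia6 was at 229 and 1083 CPM (log2 ratio 2.24, 2.16 to 2.32). Both intervals lay above those of the same genes in cDC2-like cells. Pdia3 was at 528 and 1545 CPM (1.55, 1.49 to 1.60) and P4hb at 115 and 329.5 CPM (1.51, 1.40 to 1.63). Those of Pdia3 and P4hb, too, lay above the intervals in cDC2-like cells. Txndc11 was at 50.1 and 102 CPM (1.03, 0.85 to 1.21), Erp44 at 111 and 187 CPM (0.76, 0.63 to 0.88) and Txndc5 at 48.7 and 77.1 CPM (0.66, 0.47 to 0.86). For Txndc11 alone of these 3 the interval overlapped that in cDC2-like cells.

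Pdia5 was far higher in cDC1-like than in cDC2-like cells of both libraries, and near equal between the cDC1-like cells. It was at 201 CPM in WT against 190.1 CPM in H2-Aa cit/cit cells, from 1299 and 1775 UMIs, a log2 ratio of −0.08 (−0.18 to 0.02). Against cDC2-like cells of the same library, Pdia5 was higher by 6.54 in WT (6.06 to 7.06) and by 4.20 in H2-Aa cit/cit (4.04 to 4.36) on the log2 scale. The other members differed far less between these classes, Pdia3 by 1.43 and 1.84 and Pdia4 by 0.97 and 2.36. Tmx1, at 26.0 and 32.9 CPM, and Tmx3, at 64.8 and 55.0 CPM, had log2 ratios of 0.34 (0.06 to 0.62) and −0.24 (−0.43 to −0.05).

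Depth differed between the cDC1-like cells of the libraries, with a median of 9733 UMIs in WT against 13915 in H2-Aa cit/cit, and was therefore matched after the data had been seen. In cells of 5000 to 10000 UMIs alone, 135 and 109 cells, the log2 ratio was 2.19 for Pdia4, 1.90 for Pdia6, 1.30 for Txndc11, 1.15 for P4hb and 1.10 for Pdia3. Each of these stayed past 1.5-fold, whereas Erp44 at 0.36 and Txndc5 at 0.17 did not, and Pdia5 was at −0.59, past 1.5-fold lower. Among all genes of these cells, 23.4% were past 1.5-fold higher and 4.64% lower. The ratios of Pdia4 and Pdia6 in this band were above those of cDC2-like cells of the same depth, at 1.70 and 1.68, while those of P4hb and Pdia3, at 1.20 and 1.14, were not. Among all genes of these cDC2-like cells, 2.14% were past 1.5-fold higher and 1.82% lower, so the backgrounds of the 2 classes differed. Ratios in the band are given without intervals, and the difference between the classes was not tested. In 45 WT and 42 H2-Aa cit/cit proliferating cDC1-like cells, Pdia4 was at 67.8 and 305.5 CPM (log2 ratio 2.17, 1.73 to 2.64) and Pdia6 at 278 and 907 CPM (1.70, 1.48 to 1.94).

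**Figure D3:**
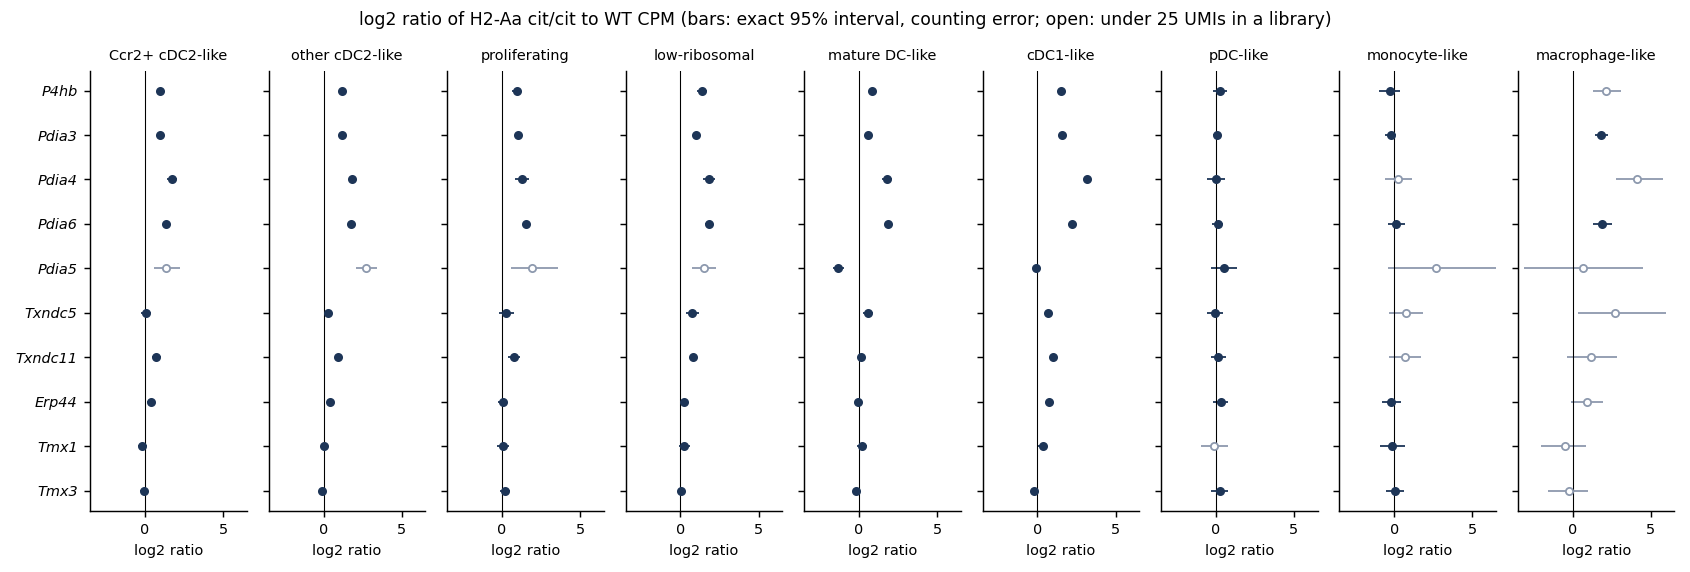
log2 ratio of CPM, H2-Aa cit/cit over WT, for each member in 9 classes, with exact 95% intervals for counting error, and open points where a library had under 25 UMIs. Pdia4 reaches 3.20 in cDC1-like cells, every pDC-like interval includes 0, Pdia5 is the filled point farthest left, at −1.30 in mature DC-like cells, and its bar in monocyte-like cells runs past the axis.

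The gap in cDC1-like cells was spread over the cells. After each cell was thinned to 1500 UMIs, 7 WT and 5 H2-Aa cit/cit cells were shallower and left out. A Pdia4 UMI was then found in 8.06% of WT cells (95% Clopper-Pearson interval 5.96 to 10.6) against 41.7% in H2-Aa cit/cit (38.0 to 45.5), and before thinning in 31.7% and 83.7%. A Pdia6 UMI was found in 21.7% (18.4 to 25.3) and 68.8% (65.1 to 72.3), and before thinning in 62.1% and 93.8%. The median thinned cell held 2 UMIs of the 10 members in WT against 6 in H2-Aa cit/cit, and the middle 80% of cells ran from 0 to 4 and from 1 to 10. The 1% of cells with most Pdia4 UMIs held 10.9% of them in WT against 6.34% in H2-Aa cit/cit. These shares rest on 322 and 4274 UMIs, and fewer UMIs raise such a share, so the libraries cannot be compared by it. No class should lack these ubiquitous genes, so that a share set by free RNA cannot be read from another class. For Pdia5 the comparison is possible in WT. Thinned WT cDC2-like cells had a UMI in 0.156% of cells (0.0321 to 0.454) against 22.6% in cDC1-like cells, at unthinned median depths of 8310.5 and 9733 UMIs. It does not extend to H2-Aa cit/cit, where Pdia5 in cDC2-like cells was at 10.3 CPM against 2.17 CPM in WT. The part of free RNA there was not tested.

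In cDC2-like cells the shares after thinning were smaller. A Pdia4 UMI was found in 3.48% of WT cells (2.70 to 4.39) against 10.7% in H2-Aa cit/cit (9.90 to 11.6), and a Pdia6 UMI in 13.8% (12.3 to 15.4) and 30.7% (29.4 to 32.0). Before thinning these shares were 18.5% and 33.5% for Pdia4 and 49.2% and 65.8% for Pdia6. WT cDC2-like cells were deeper than those of H2-Aa cit/cit, at a median of 8310.5 against 6992 UMIs. The 1% of cells with most Pdia4 UMIs held 11.1% of them in WT against 13.2% in H2-Aa cit/cit. With 423 and 3437 UMIs, these shares cannot be compared between the libraries either.

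**Figure D4:**
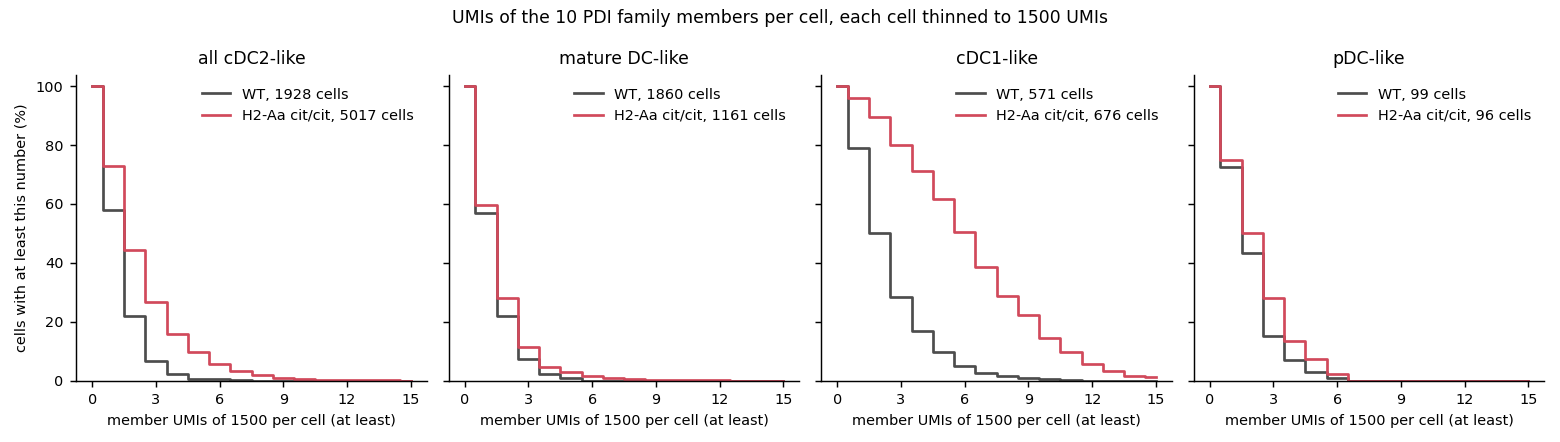
Share of cells (%) with at least a given number of UMIs of the 10 members, each cell thinned to 1500 UMIs, for 4 classes of the WT (dark) and H2-Aa cit/cit (red) library. The curves are far apart in cDC1-like cells, where the median cell held 2 and 6 UMIs, and lie close together in pDC-like cells.

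In pDC-like cells none of the members was past 1.5-fold in either direction and every interval of a member's ratio included 0, while the sum of the 10 members was at 1070.0 and 1182 CPM (log2 ratio 0.14, 0.01 to 0.28). Among all genes of this small class 5.39% were past 1.5-fold higher and 5.71% lower. Pdia4 was at 71.2 CPM in WT against 71.6 CPM in H2-Aa cit/cit cells, from 71 and 46 UMIs, a log2 ratio of 0.01 (−0.56 to 0.56). Pdia3 was at 311 and 333 CPM (0.10, −0.16 to 0.36), and Pdia6 at 172 and 187 CPM (0.12, −0.23 to 0.46). These upper bounds lay under the lower bounds of the same genes in cDC1-like and cDC2-like cells. A smaller difference in either direction was not detectable from the 99 and 101 cells. The count depended on the processing, and from 1 to 5 members were higher past the fold in use under 6 alternatives. It was 3 beside 2.48% of genes where 274 and 431 cells were assigned by mean marker z-score. In cells of 5000 to 10000 UMIs it was 3 beside 13.3%, and as a mean over cells 2 beside 9.35%. It was 1 beside 8.02% with stricter gates and 1 beside 16.7% at a lower fold. The count of 5, beside 35.5%, left out cells with plasma cell list UMIs, so that 6 and 15 cells remained.

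WT pDC-like cells had the highest Pdia4 level of the 9 WT classes, with an interval (55.6 to 89.8 CPM) that began where that of cDC1-like cells ended (44.5 to 55.6 CPM). In H2-Aa cit/cit the order differed, with 458 CPM in cDC1-like, 344 CPM in macrophage-like, 94.4 CPM in Ccr2+ cDC2-like, 87.9 CPM in other cDC2-like and 71.6 CPM in pDC-like cells. The first 2 of these did not differ beyond their intervals, nor did the last 3. Among the 9 classes, Txndc5 was highest in pDC-like cells of both libraries, at 87.2 and 84.1 CPM, although in H2-Aa cit/cit its interval overlapped that of cDC1-like cells. Genes of the plasma cell list were also detected in pDC-like cells, at 2003 and 1671 CPM for the list of 9 genes. In the 5 WT and 4 H2-Aa cit/cit plasma-like cells, which are not among the 9 classes, Txndc5 had 26 of 36351 and 4 of 5972 UMIs. This is 715 CPM (467 to 1048) and 670 CPM (182 to 1715), above the pDC-like level in both libraries.

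Mature DC-like cells, which carry Ccr7, Fscn1 and Socs2, had 3 of 8 tested members past 1.5-fold higher (P4hb, Pdia3 and Pdia6), beside 4.07% of genes, and 1 of 8 (Pdia5) past 1.5-fold lower, beside 4.39%. Pdia6 was at 40.3 CPM in WT against 145.5 CPM in H2-Aa cit/cit (log2 ratio 1.85, 1.70 to 2.01). Pdia4 was under the minimum, at 8.40 and 29.2 CPM from 118 and 185 UMIs (1.80, 1.46 to 2.14). P4hb was at 32.8 and 58.1 CPM (0.83, 0.63 to 1.03) and Pdia3 at 158 and 238 CPM (0.59, 0.50 to 0.69). Pdia3 was just past the limit, at a ratio of 1.51, and was short of it with stricter gates (log2 ratio 0.34), the median ratio of genes as scaling, a mean over cells and without the deepest 5% of cells. For Pdia3 the interval lay below that in cDC2-like cells, and for Pdia6 it overlapped that interval. Mature cells were also split by cDC1 markers, with limits given below. The log2 ratio of Pdia3 was 1.24 (0.94 to 1.54) in cells with these markers and 0.69 (0.59 to 0.80) in the others. For P4hb it was 1.16 (0.46 to 1.81) and 0.98 (0.75 to 1.20), and for Pdia6 3.04 and 1.85. For Pdia4 it was 3.36 (2.39 to 4.32), from only 23 and 18 UMIs, and 1.71 (1.33 to 2.08). In both parts the ratios of Pdia3 and P4hb were thus above those in all mature DC-like cells. Of Pdia3 and P4hb, only Pdia3 in cells with cDC1 markers had an interval above that in all mature DC-like cells. Erp44 and Tmx3 were high in WT mature DC-like cells, at 117 and 109.5 CPM, and near equal in H2-Aa cit/cit, at 114 and 95.4 CPM. For Erp44 the log2 ratio was −0.04 (−0.17 to 0.09), and for Tmx3 −0.20 (−0.34 to −0.06).

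Pdia5 was the member whose direction turned in mature DC-like cells. It was at 30.8 CPM in WT against 12.5 CPM in H2-Aa cit/cit cells, from 433 and 79 UMIs, a log2 ratio of −1.30 (−1.67 to −0.96). cDC1 markers moved with it, from 298 to 54.5 CPM for the list of 9 genes. Mature cells with at least 2 UMIs of these markers, and at least 4 per 10000 UMIs, numbered 263 in WT against 31 in H2-Aa cit/cit. In them Pdia5 was at 82.0 and 34.3 CPM (log2 ratio −1.26, −2.59 to −0.19), from 220 and only 7 UMIs. In the mature cells short of either limit, 1678 and 1184 cells, which can still hold some UMIs of these markers, it was at 18.7 and 11.8 CPM (−0.67, −1.08 to −0.28). At a matched depth of 5000 to 10000 UMIs the log2 ratio was −0.21, and Pdia5 was then no longer past 1.5-fold. With cells assigned by mean marker z-score, as a mean over cells, with stricter gates, without the deepest 5% of cells and without cells with plasma list UMIs the ratio stayed past 1.5-fold lower, with −0.80 nearest to 0, but its mean over both libraries was under 20 CPM and it was not counted.

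Macrophage-like cells had 7 of 9 tested members past 1.5-fold higher, but 22% of all genes were past that fold higher and 22.7% lower in this small and shallow class, and 0 members were lower. Median depth was 1015 UMIs in WT against 964 in H2-Aa cit/cit. Pdia4 had 5 UMIs in WT against 53 in H2-Aa cit/cit, which is 20.3 and 344 CPM (log2 ratio 4.08, 2.77 to 5.76). A single H2-Aa cit/cit cell of 21341 UMIs held 174 of the 413 member UMIs of the class, or 42.1%, and 29 of the 53 Pdia4 UMIs were in 1 cell. Without the deepest cell of each library, an alternative chosen after the data had been seen, the log2 ratio was 3.08 for Pdia4, 1.82 for P4hb, 1.49 for Pdia6 and 1.06 for Pdia3, against 1.83 for Pdia3 with it. The count of members past 1.5-fold higher was then 6, beside 23.1% of all genes.

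In monocyte-like cells, 2 of 9 tested members (Txndc5 and Txndc11) were past 1.5-fold higher, beside 8.97% of genes, and 0 lower, beside 10.7%. They had 14 and 22 UMIs of Txndc5 and 15 and 23 of Txndc11, and every interval of a ratio in this class included 0. Pdia3, the best counted, was at 224 CPM in WT against 194 CPM in H2-Aa cit/cit (log2 ratio −0.21, −0.57 to 0.14). P4hb was at 71.6 and 58.2 CPM (−0.30, −0.96 to 0.35). With 347 and 574 cells assigned by mean marker z-score, both directions turned, to 0.76 for Pdia3 and 0.69 for P4hb, and 5 members were past 1.5-fold higher, beside 3.59% of genes.

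Markers of other cells were summed in the same classes. UMIs of the plasma cell list of 9 genes, whose cells are rich in Txndc5 and other members, were at 122 and 124 CPM in cDC2-like and at 121 and 132 CPM in cDC1-like cells. Without every cell that held a UMI of that list, 815 WT and 2347 H2-Aa cit/cit cDC2-like cells and 224 and 184 cDC1-like cells remained. The log2 ratio of Pdia4 was then 1.97 in cDC2-like and 3.66 in cDC1-like cells, and that of Pdia6 1.74 and 2.72, each above its value with those cells. Depth was not matched in this step, and 11.4% of all genes in cDC1-like cells were then past 1.5-fold higher, against 7.17%. In cDC1-like cells of 5000 to 10000 UMIs the Pdia4 ratio moved the other way, to 2.19. UMIs of the neutrophil list of 9 genes were at 2.41 and 10.4 CPM in cDC2-like and 1.86 and 9.53 CPM in cDC1-like cells, higher in H2-Aa cit/cit. The mature DC list of 10 genes was lower there, at 265 CPM in WT against 169 CPM in H2-Aa cit/cit for cDC2-like cells and at 509.7 and 153 CPM for cDC1-like cells. In cDC1-like cells the pDC list was at 527 and 306 CPM, the list of 6 genes of the low-ribosomal cells at 4074 and 2546 CPM and the cDC1 list at 3111 and 2344 CPM. The part of these lists in the results was not tested.

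Across the 9 classes the members fell into patterns that differed in shape. Pearson correlations of log2(CPM + 5) between P4hb, Pdia3, Pdia4 and Pdia6 ran from 0.71 to 0.92 in WT and from 0.93 to 0.98 in H2-Aa cit/cit. Tmx3 ran against them, from −0.84 to −0.63 in WT and from −0.91 to −0.88 in H2-Aa cit/cit. Pdia5 was closest to Erp44 among the members, with 0.72 and 0.79. The points are sums over classes of unequal depth in 1 library each and share that library, so these values are descriptions.

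Among all genes with at least 50 CPM in a class, those most like each member over the 9 WT classes were found the same way. Pdia4 was closest to Dnajb11, which encodes a co-chaperone of the ER (r = 0.95 in WT against 0.98 in H2-Aa cit/cit), then Leprotl1 and Spcs3, a signal peptidase subunit. Pdia3 was closest to Hspa5, the chaperone BiP (0.93 and 0.98), then Mtln and Ssr4. Pdia6 was closest to Ostc, a subunit of the oligosaccharyltransferase (0.96 and 0.91), then Ppp1r14b and Ik, whose values in H2-Aa cit/cit were 0.43 and 0.49. P4hb was closest to Tmem258, Trappc4 and Srp9, with 0.97 to 0.98 in WT against 0.79 to 0.89 in H2-Aa cit/cit. Pdia5 was closest to Fgd6, Rhobtb1 and Lrrc1, with 0.93 to 0.97 and 0.74 to 0.94. For Txndc5 these were Trabd, Cnp and Hadha, for Txndc11 Arhgef6, Gm36975 and 6530409C15Rik, for Erp44 Ttc39a, Galnt7 and Slc22a23, for Tmx1 Tmem179b, Csnk1e and Ethe1, and for Tmx3 Bmt2, Zfand6 and Nmrk1. These 15 correlations ran from 0.90 to 0.98 in WT and from 0.42 to 0.89 in H2-Aa cit/cit. Every gene here was picked for its correlation in WT over 9 classes, so the WT values are high by selection. Lower values in H2-Aa cit/cit can therefore not be read as a difference between genotypes.

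Other genes of the same chemistry were compared in cDC2-like cells. Of 17 further PDI family and ER thioredoxin-fold genes, 7 passed the minimum, and 0 of them were past 1.5-fold in either direction, with a median log2 ratio of −0.07. Erp29, a PDI relative without the active-site cysteines, was highest at 248 CPM in WT against 311 CPM in H2-Aa cit/cit (log2 ratio 0.33), followed by Selenof (0.08) and Txndc15 (0.02). Ifi30, the lysosomal thiol reductase of antigen processing, was lowest at 1066 and 952 CPM (−0.16), after Dnajc10 (−0.10) and Txndc16 (−0.07). Of 15 genes of ER oxidation and thiol supply, 7 passed and 0 were past 1.5-fold, with a median of 0.07. Ero1lb, an oxidase that regenerates PDI, was highest at 63.2 and 89.0 CPM (0.49), before Ero1l (0.11) and Gfer (0.11). Gsr, the glutathione reductase, was lowest at 73.5 and 59.8 CPM (−0.30), below Sumf1 (−0.07) and Txnrd1 (0.02).

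Genes that work with PDI proteins came next. Of 26 such partners 20 passed in cDC2-like cells, and 8 were past 1.5-fold higher (Calr, Canx, Hspa5, Hsp90b1, Dnajb11, Sdf2l1, Edem1 and Hyou1), with 0 lower and a median of 0.32. Sdf2l1, a factor of the Hspa5 chaperone complex, was highest at 69.3 and 304 CPM (log2 ratio 2.13), followed by Hyou1 (1.81) and Hspa5 at 253 and 869.7 CPM (1.78). The lowest were B2m, the light chain of MHC-I, at 1779.6 and 1553 CPM (−0.20), Tapbp, which encodes tapasin (−0.09), and Rcn2 (−0.01). Of the partners of Pdia3, the lectins Calr and Canx were thus past 1.5-fold and Tapbp was not.

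Of 24 regulators and targets of XBP1 and ATF6 outside the family, 22 passed and 13 were past 1.5-fold higher in cDC2-like cells, with 0 lower and a median of 0.69. Creld2, itself a PDI-like protein of the ER, was highest at 12.9 and 64.5 CPM (log2 ratio 2.33), then Manf at 71.6 and 269.8 CPM (1.91) and Dnajc3 at 103 and 254 CPM (1.31). The lowest were Atf6b (−0.03), Ssr1 (0.12) and Atf6 (0.18). In cDC1-like cells 21 of 24 of these genes were past 1.5-fold higher, with a median of 1.254, and 11 of 20 partners, with a median of 0.60. There 2 of 6 further PDI family genes (Erp29 and Selenof) and 2 of 9 genes of ER oxidation and thiol supply (Ero1l and Vkorc1) were also past 1.5-fold higher. In pDC-like cells the counts were 1 of 22 (Creld2) and 0 of 20, with medians of 0.07 and −0.04. Past 1.5-fold lower there were 1 of 8 further PDI family genes (Tmx4) and 1 of 7 of ER oxidation and thiol supply (Gfer). The same held for 1 of 20 partners (Rcn2), beside 5.71% of all genes. These lists were chosen with results of these data known. Their counts past 1.5-fold higher stand beside the 1.85% of genes in cDC2-like, 7.17% in cDC1-like and 5.39% in pDC-like cells.

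**Figure D5:**
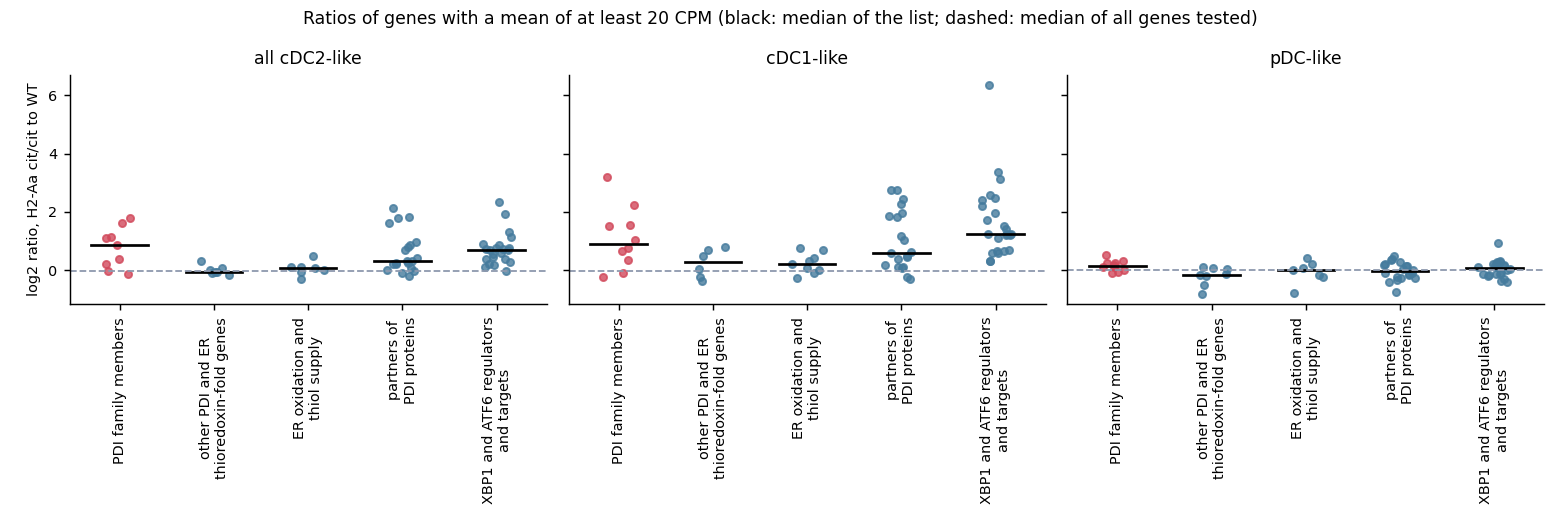
log2 ratios of CPM, H2-Aa cit/cit over WT, for members (red) and the genes of 4 related lists (blue) with a mean of at least 20 CPM, in 3 classes, with black bars for list medians and a dashed line for the median of all genes tested. In cDC2-like cells the members' median is 0.88 and that of the further PDI family genes −0.07, and in pDC-like cells all lists lie near 0.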

How the data were processed

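Sorted splenic CD11c+ cells were measured in 1 droplet library for WT mice and another for H2-Aa cit/cit mice, with 3 mice pooled in either. The files hold raw UMI counts for every gene in every called cell, produced by the authors through Cell Ranger (version 5.0.1 by the submitters' processing notes, where Seurat is also named) on GRCm38. The annotation and the handling of intronic reads are not given in the sources used here. Calling cells and collapsing UMIs removed empty droplets and amplification copies, and free RNA was not subtracted.

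Counts of a class were summed per library and scaled by its total UMIs (CPM). Cells entered a class when marker UMIs per 10000 reached a limit (pDC 30, cDC1 8, mature DC 20, cDC2 5, Ccr2+ cDC2 12, proliferating 15, other lineages 20, with at least 4 marker UMIs) or had under 8% ribosomal UMIs. Levels carry exact Poisson, ratios exact conditional binomial and shares Clopper-Pearson 95% intervals, all for counting error only. A gene counted as past the fold at 1.5-fold, among genes with a mean of at least 20 CPM over both libraries. No test between genotypes was possible. The depth was 51020804 UMIs for WT against 72652201 for H2-Aa cit/cit.

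Named genes were all members, the 3 highest and 3 lowest ratios of each related list in cDC2-like cells, the 3 genes most like each member over the WT classes among genes of at least 50 CPM in a class, and H2-Aa. Others named, in the calls of a list, were chosen after their values were seen. The members and lists were chosen with earlier results of these data known. Alternatives changed the scaling, minimum, fold, gates, cells left out and thinning. Scripts were tested on simulated data and used Python 3.11.15, numpy 2.4.6, scipy 1.17.1, pandas 2.3.3 and matplotlib 3.10.9.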

Additional observations from a re-analysis of the deposited data

Results flagged for a closer look

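Pdia5 went in opposite directions in the libraries of 2 classes, with a log2 ratio of H2-Aa cit/cit to WT of −1.30 in mature DC-like cells (433 and 79 UMIs) and 2.71 in other cDC2-like cells (20 and 300 UMIs). In cells of 5000 to 10000 UMIs these ratios were −0.21 and 3.28. Pdia5 was at 1.49 and 9.75 CPM in other cDC2-like cells, under the minimum of 20 CPM. With 1 library per genotype the difference between these classes was not tested. Markers of cDC1 were at 298 and 54.5 CPM in mature DC-like cells, and their part in the result was not tested.

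Cells outside every gate, 658 from WT against 1194 from H2-Aa cit/cit, entered no comparison of the report and showed the same members apart. Pdia4 was at 31.1 and 140.0 CPM there (log2 ratio 2.17, 1.80 to 2.56) and Pdia6 at 121 and 456 CPM (log2 ratio 1.92, 1.73 to 2.11). The median depth of these cells was 1120.5 UMIs for WT against 3645.5 for H2-Aa cit/cit, and its part in the result was not tested.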

How the results depend on the processing

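No paired analysis was possible because each genotype had 1 library. All 100 log2 ratios of members over 10 classes stayed within their counting intervals with the median ratio of genes as scaling, a denominator without mitochondrial and ribosomal genes, without cells over 10% mitochondrial UMIs and without barcodes found in both libraries. Of the ratios whose interval left out 0, 1 turned sign, that of Pdia5 in proliferating cells at −2.09 in cells of 5000 to 10000 UMIs, where the main value was 1.91 from 5 and 38 UMIs. Another 13 ratios, each with an interval that included 0, turned sign and left that interval under at least 1 alternative, and 9 of them were in the pDC-like, monocyte-like or macrophage-like cells. Among these, Pdia3 in pDC-like cells went to −1.66 and Txndc11 to −1.25 without cells with plasma list UMIs, and Pdia4 in monocyte-like cells to −1.85 under the same alternative. That depth band, the barcodes and the deepest cell were chosen as alternatives after seeing the data. Thinning to 1000 or 3000 UMIs shifts shares by construction. The counts of members past 1.5-fold higher stayed within 1.5 times under every alternative in the cDC2-like, proliferating, low-ribosomal, cDC1-like, mature DC-like and macrophage-like cells. The share of all genes past that fold moved as well. In cDC1-like cells it was 23.4% in the depth band and 11.4% without plasma list cells, against 7.17%. In mature DC-like cells it was 2.79% and 6.3%, against 4.07%, and in all cDC2-like cells 2.14% and 2.04%, against 1.85%. In monocyte-like cells (main count 2) the count of members was 5 with cells assigned by mean marker z-score (3.59% of all genes), 0 as a mean over cells (9.71%), 0 with stricter gates (14.3%) and 1 without the deepest 5% of cells (9.18%). In pDC-like cells (main count 0) it was 3 in the depth band (13.3% of all genes), 1 at the lower fold (16.7%), 3 by z-score (2.48%), 2 as a mean over cells (9.35%), 1 with stricter gates (8.02%) and 5 without cells with plasma list UMIs (35.5%), which left 6 and 15 cells. The count past 1.5-fold lower in mature DC-like cells (main count 1, Pdia5) was 0 in the depth band, by z-score, as a mean over cells, with stricter gates, without cells with plasma list UMIs and without the deepest 5% (2.23% to 5.69% of all genes), in all but the first of these because its mean was then under 20 CPM. In macrophage-like cells (main count 0) it was 1 in the depth band (34.3% of all genes), 1 at the lower fold (35.1%), 2 as a mean over cells (25.8%), 3 with stricter gates (40.4%) and 1 without the deepest 5% (25%). It was 1 in cDC1-like cells in the depth band (4.64%), 1 and 2 in monocyte-like cells with stricter gates (18.5%) and without plasma list cells (16.8%), and 2 in pDC-like cells without plasma list cells (41.6%), against 0 in each. The causes of the other moves were not tested. Genes with few UMIs, above all Pdia5 outside cDC1-like cells and every member in the small classes, are limited by depth.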
